A study of Homo sapiens with 6 samples.

Results

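The transcription factor NF-kB was followed in LX-2 hepatic stellate cells through 10 genes: the subunit genes NFKB1, NFKB2, RELA and RELB, the inhibitor-like coactivator gene BCL3, the inhibitor genes NFKBIA, NFKBIE and TNFAIP3, and the target genes BIRC3 and ICAM1. They were chosen by symbol, as the rows of the gene table that carry an Ensembl identifier and one of these names, and all 10 were found, 1 row each, among 60780 rows. All 10 also passed the filter on low counts, which left 16707 genes to test. LX-2 is an established human stellate cell line. The cells spent 24 h in medium conditioned by HCT116, an established human colorectal carcinoma line, infected with lentivirus that carried an empty vector (Vector-CM, n = 3) or FGFBP1 (FGFBP1-CM, n = 3), which encodes a secreted carrier of fibroblast growth factors. The HCT116 cells themselves were not sequenced here, and both media came from cells that carried a lentiviral construct, so a medium from cells without one is not part of the comparison. The comparison asks how the stellate cells' NF-kB genes differ when the tumor cells that conditioned the medium overexpress FGFBP1.

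NF-kB dimers wait in the cytoplasm, held by IkB proteins. In the canonical arm, receptors for tumor necrosis factor, interleukin-1 or microbial products activate the IKK complex, IkB is degraded, and dimers of RELA with the NFKB1 product p50 enter the nucleus. In the noncanonical arm, the NFKB2 product p100 is processed to p52, which pairs with RELB. Many of the genes switched on are the pathway's own brakes, among them NFKBIA and TNFAIP3, so transcripts of inhibitors and targets are commonly read as a sign of pathway activity, although the activity itself lies in protein and was not measured. In activated stellate cells the pathway is known for cell survival and for chemokine and adhesion molecule production.

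The DNA that these factors bind, the kappa B site, could be read in the starts of most of these genes, and the sequences are shown to place the genes as holders of the motif. RefSeq promoter windows (GRCh38.p14), each from 250 bases before to 50 bases after an annotated start, were matched by symbol for 8 of the 10 genes, in 12 windows. No window was matched for RELB or NFKBIE. The kappa B consensus (GGG, a purine, any pair of bases, a pair of pyrimidines, CC, searched on both strands, where a palindromic match counts on both and neighbouring matches can overlap) was found in 6 of the 8 genes, or 75%, against 13.3% of 27305 genes with a window. By window it was found in 58.3% of these 12 and in 11.3% of all 35116. The windows of RELA and ICAM1 did not hold these letters. NFKBIA is shown with all 250 bases before its start (chr14:35404750-35404999, minus strand), the others with 1 match each and its flanks. The match is in capitals, and a match that reads GGA to CCC is the consensus of the opposite strand:
NFKBIA: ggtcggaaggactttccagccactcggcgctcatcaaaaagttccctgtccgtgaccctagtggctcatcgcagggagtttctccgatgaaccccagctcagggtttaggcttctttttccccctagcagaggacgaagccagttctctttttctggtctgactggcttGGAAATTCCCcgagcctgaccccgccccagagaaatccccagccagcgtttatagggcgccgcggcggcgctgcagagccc
NFKB1: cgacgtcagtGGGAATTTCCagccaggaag
NFKB2: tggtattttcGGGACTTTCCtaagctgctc
BCL3: ccggctgcagGGGAAGTCCCggcgcccggc
TNFAIP3: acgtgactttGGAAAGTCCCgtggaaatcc
BIRC3: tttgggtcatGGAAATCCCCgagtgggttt
The NFKB1 stretch lies at chr4:102501300-102501329, that of NFKB2 at chr10:102395674-102395703, before the third of its 3 annotated starts, and that of BCL3 at chr19:44748700-44748729, all on the plus strand. The TNFAIP3 stretch lies at chr6:137867182-137867211 and that of BIRC3 at chr11:102317275-102317304, also on the plus strand. Counting from the start of transcription, the match begins at -81 in NFKBIA, -49 in NFKB1, -21 in NFKB2, 3 in BCL3, -67 in TNFAIP3 and -199 in BIRC3. A match is a string of letters and not a site shown to be bound.

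Total counts ranged from 14003780 to 18508113 per library, and a count of 0 in a library would allow up to 0.158 to 0.217 CPM, counting error only. CPM is the count relative to the library total after TMM scaling. FGFBP1-CM replicate 1 stood apart. On the first principal component, which carried 43.5% of the variance, it lay at 38.1, while the other 2 FGFBP1-CM libraries lay at 4.73 and 4.96 and the Vector-CM libraries between -18.3 and -12.9. It was the lowest of the 6 libraries for 7 of the 10 genes and the highest for 2 others, so the fold change of each of the 10 genes is also given without it. Stellate cell genes were present at unlike levels. In Vector-CM, VIM was at 2591 ± 112, SPARC at 518 ± 28.1, TIMP1 at 335 ± 16.2 and COL1A1 at 155 ± 12.0 CPM (SD, n = 3). ACTA2 at 4.75 ± 0.627, PDGFRA at 1.23 ± 0.290 and THY1 at 1.19 ± 0.101 CPM were low there (SD, n = 3). DES and GFAP were below the filter on low counts, and LRAT, a defining gene of quiescent stellate cells, was at 0 in all 6 libraries. The summed level of 14 stellate genes, most of it VIM, was 3570 to 3841 CPM with Vector-CM against 2770 to 3306 CPM with FGFBP1-CM. Of the 11 tested, 5 were lower at an unadjusted p under 0.05, against 10.7% of all tested genes. Past the adjusted threshold of edgeR 1, TIMP1, was lower, against 0.0658% of all tested genes. Colorectal epithelial genes summed to 224 to 250 CPM and 215 to 234 CPM, nearly all of it KRT8 and KRT18, with CEACAM5 and CEACAM6 at 0 in every library. Leukocyte genes summed to 6.22 to 6.98 CPM and 5.80 to 8.97 CPM, with CD163, TYROBP and MS4A1 among those at 0. Endothelial genes summed to 14.6 to 16.9 CPM and 13.6 to 16.6 CPM, and hepatocyte genes to 41.5 to 44.5 CPM and 18.3 to 28.1 CPM. Most of the hepatocyte sum was SERPINA1, on average 29.6 CPM with Vector-CM and 20.7 CPM with FGFBP1-CM (edgeR adjusted p = 0.0690). ALB, APOB, AFP and FGA passed the adjusted threshold of edgeR as lower, all at low levels. Their means were 3.43, 3.37, 3.11 and 0.933 CPM with Vector-CM and 0.611, 0.278, 0.669 and 0.0594 CPM with FGFBP1-CM. The part of these differences in the results on NF-kB genes was not tested.

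In FGFBP1-CM, 7 of the 10 genes lay lower than in Vector-CM without any overlap between the groups: NFKB2, RELA, RELB, BCL3, NFKBIA, TNFAIP3 and ICAM1. The groups failed to overlap on the lower side for 13.2% of all tested genes and on the higher side for 12.8%. The differences of these 7 were modest, with percent changes from -9.50% for RELA to -24.3% for BCL3, and NFKB1, NFKBIE and BIRC3 had overlapping groups. None of the 10 passed an adjusted p of 0.05 in the quasi-likelihood test of edgeR, where 0.0658% of all tested genes passed as lower and 0.0539% as higher. At an unadjusted p under 0.05, 7 of the 10 were lower and 0 were higher, against 10.7% and 11.1% of all tested genes. The median log2 fold change of the 10 was -0.25, and that of all tested genes was 0.0032. DESeq2 called 3 of the 10 at an adjusted p under 0.05 (NFKB2, BCL3 and ICAM1), all lower, where 2.59% of all genes with an adjusted p were called lower. limma on the FPKM values called none. With no filter on low counts edgeR called 4 of the 10, all lower, against 1.44% of all genes, and without FGFBP1-CM replicate 2 it called 5, all lower, against 2.77%. Without FGFBP1-CM replicate 1, none passed the adjusted threshold of edgeR and 6 of 10 were lower at an unadjusted p under 0.05, against 6.91% of tested genes. In a culture sequenced in bulk, fewer cells with a transcript and less of it per cell cannot be told apart.

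**Figure D1:**
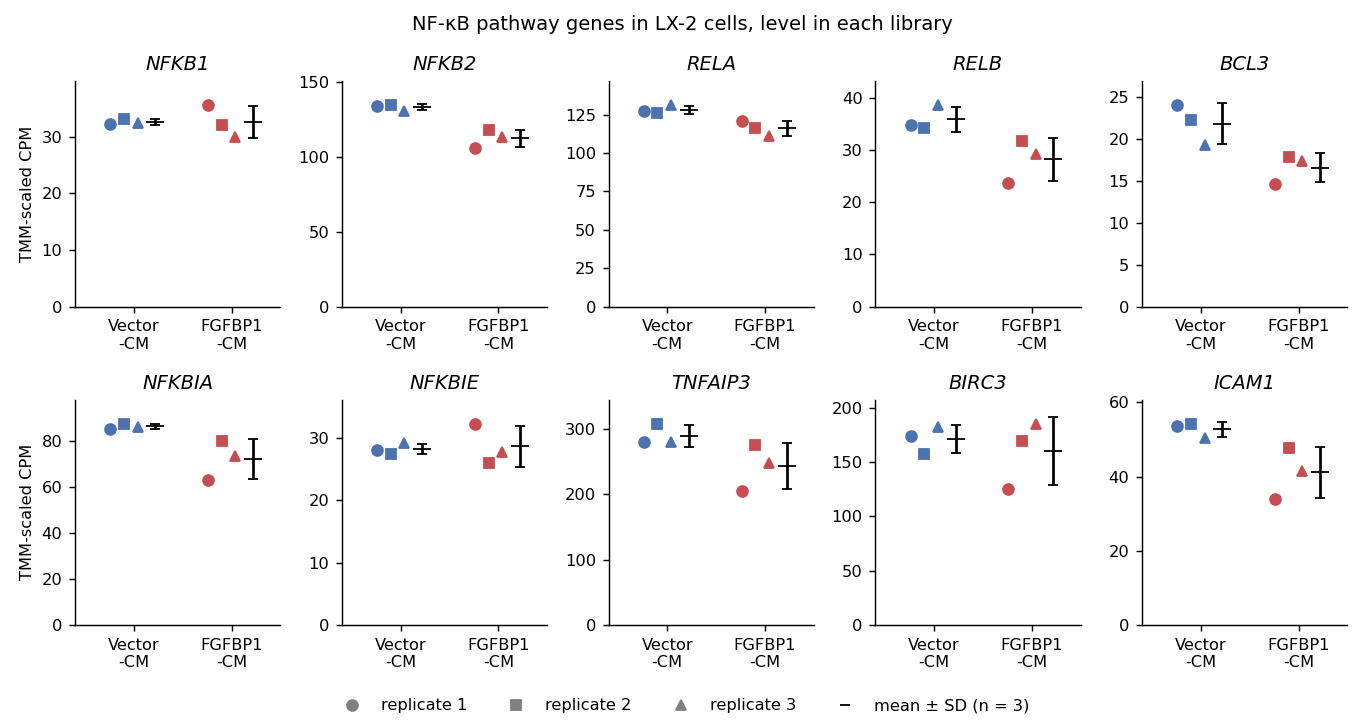
Level of each of the 10 genes in TMM-scaled CPM (linear axis from 0), by medium. Each symbol is 1 library, and the black bar is the mean ± SD of 3 libraries. In 7 panels all FGFBP1-CM libraries lie below all Vector-CM libraries, and the FGFBP1-CM circle, replicate 1, is the lowest point of the panel in 7.

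Among the subunit genes, those of the noncanonical arm had the larger estimated differences. The ratios given further on, NFKB2 to NFKB1 and RELB to RELA, gave an exact permutation p = 0.1 and p = 0.3, both 0.4 adjusted. With 3 libraries against 3 the smallest p of this test is 0.1, so it could not decide whether the arms differ. The NFKB2 to NFKB1 groups were separate and the RELB to RELA groups overlapped, and the difference between the arms stays an estimate. Transcripts of NFKB2 (62.4% GC) and RELB (65.4%) are also richer in GC than those of RELA (57.1%) and NFKB1 (50.1%). Estimates after a correction for GC content are given further on. NFKB2 (ENSG00000077150, chromosome 10, 102394110 to 102402529, plus strand, GRCh38), which encodes p100 and its product p52, was at 134, 134 and 131 CPM in Vector-CM replicates 1 to 3 and at 106, 118 and 113 CPM in the FGFBP1-CM replicates. All FGFBP1-CM libraries were below all Vector-CM libraries, and the Vector-CM libraries were within 4 CPM of each other. The log2 fold change was -0.25 (SE 0.0634, edgeR adjusted p = 0.0759), the lowest adjusted p of the 10, and -0.20 without FGFBP1-CM replicate 1.

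RELB (ENSG00000104856, chromosome 19, 45001430 to 45038198, plus strand), the partner of p52, was at 34.9, 34.2 and 38.7 CPM in Vector-CM and at 23.7, 31.9 and 29.2 CPM in FGFBP1-CM. The groups were separate, with FGFBP1-CM replicate 1 far below the other 2 libraries of its group and Vector-CM replicate 3 above the rest. The estimated log2 fold change was -0.35 (SE 0.104, edgeR adjusted p = 0.0963), and without FGFBP1-CM replicate 1 it was -0.23, smaller by more than 1.5 times.

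RELA (ENSG00000173039, chromosome 11, 65653596 to 65663094, minus strand), the transactivating subunit of the canonical dimer, was at 127, 126 and 131 CPM in Vector-CM and at 121, 116 and 111 CPM in FGFBP1-CM. The groups were separate by a narrow margin, and here FGFBP1-CM replicate 1 was the highest library of its group. On the log2 scale the difference was -0.14 (SE 0.0623, edgeR adjusted p = 0.200), and -0.17 without that library.

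NFKB1 (ENSG00000109320, chromosome 4, 102501329 to 102617302, plus strand), which encodes p105 and its product p50, was at 32.2, 33.2 and 32.4 CPM in Vector-CM and at 35.6, 32.1 and 29.9 CPM in FGFBP1-CM. The FGFBP1-CM libraries lay on both sides of the Vector-CM libraries. This gave a log2 fold change of -0.00027 (95% interval -0.18 to 0.18, edgeR adjusted p = 0.999), and -0.068 without FGFBP1-CM replicate 1. The 95% interval of NFKB2, -0.38 to -0.11, overlapped that of NFKB1.

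BCL3 (ENSG00000069399, chromosome 19, 44747705 to 44760044, plus strand), a nuclear IkB-like protein that joins p50 or p52 dimers and can act as a coactivator, had the lowest fold change of the 10. It was at 24.0, 22.2 and 19.2 CPM in Vector-CM and at 14.6, 17.8 and 17.3 CPM in FGFBP1-CM. The groups were separate, although Vector-CM replicate 3 and FGFBP1-CM replicate 2 were close, and the spread was similar in both groups. Its log2 fold change was -0.40 (SE 0.112, edgeR adjusted p = 0.0868), and -0.31 without FGFBP1-CM replicate 1. A microRNA gene, MIR8085, shares 65 exonic bases with BCL3 and had a count of 0 in every library.

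The 3 inhibitor genes gave unlike estimates, 2 lower and 1 near 0. NFKBIA (ENSG00000100906, chromosome 14, 35401511 to 35404749, minus strand) encodes IkB alpha, the inhibitor that NF-kB resynthesizes fastest. It was at 85.2, 87.5 and 86.2 CPM in Vector-CM and at 63.0, 80.1 and 73.5 CPM in FGFBP1-CM. The Vector-CM libraries were tightly grouped, all 3 FGFBP1-CM libraries were below them, and FGFBP1-CM replicate 1 was again the lowest. The difference on the log2 scale was -0.26 (SE 0.0820, edgeR adjusted p = 0.110), and -0.17 without that library, smaller by more than 1.5 times.

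TNFAIP3 (ENSG00000118503, chromosome 6, 137867188 to 137883312, plus strand) encodes A20, an enzyme that edits ubiquitin chains and shuts off signaling upstream of IKK. It was at 279, 307 and 279 CPM in Vector-CM and at 205, 275 and 248 CPM in FGFBP1-CM. The groups were separate by under 5 CPM, between FGFBP1-CM replicate 2 and Vector-CM replicate 1, and they overlapped when libraries were scaled by their totals alone and on the FPKM scale. The log2 fold change was -0.25 (SE 0.0921, edgeR adjusted p = 0.146). Without FGFBP1-CM replicate 1 it was -0.14, smaller by more than 1.5 times, and TNFAIP3 was then no longer at an unadjusted p under 0.05. An antisense gene that shares 95 exonic bases with TNFAIP3 had 15 to 31 counts per library, against 3886 to 5003 for TNFAIP3.

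NFKBIE (ENSG00000146232, chromosome 6, 44258166 to 44265788, minus strand), which encodes IkB epsilon, a slower inhibitor, was at 28.0, 27.4 and 29.1 CPM in Vector-CM and at 32.2, 25.9 and 27.7 CPM in FGFBP1-CM. The groups overlapped, and FGFBP1-CM replicate 1 was the highest of the 6 libraries. The estimated log2 fold change was 0.025 (95% interval -0.17 to 0.22, edgeR adjusted p = 0.904), and -0.069 without that library, a change of sign.

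Of the 2 target genes, ICAM1 (ENSG00000090339, chromosome 19, 10270835 to 10286615, plus strand), which encodes an adhesion molecule that binds leukocyte integrins, was lower in FGFBP1-CM. It was at 53.5, 54.3 and 50.5 CPM in Vector-CM and at 34.1, 47.8 and 41.5 CPM in FGFBP1-CM. The groups were separate, and the FGFBP1-CM libraries were spread more widely than the Vector-CM libraries. On the log2 scale the difference was -0.36 (SE 0.102, edgeR adjusted p = 0.0878), and -0.24 without FGFBP1-CM replicate 1, smaller by more than 1.5 times. Antisense genes that share up to 815 exonic bases with ICAM1 had 0 to 2 counts per library.

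BIRC3 (ENSG00000023445, chromosome 11, 102317450 to 102339403, plus strand), which encodes cIAP2, a ubiquitin ligase of receptor complexes that protects from cell death, was at 174, 158 and 183 CPM in Vector-CM and at 126, 169.6 and 185 CPM in FGFBP1-CM. FGFBP1-CM replicate 1 was the lowest of the 6 libraries and FGFBP1-CM replicate 3 the highest. This gave a log2 fold change of -0.099 (95% interval -0.34 to 0.15, edgeR adjusted p = 0.647), and 0.053 without FGFBP1-CM replicate 1.

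**Figure D2:**
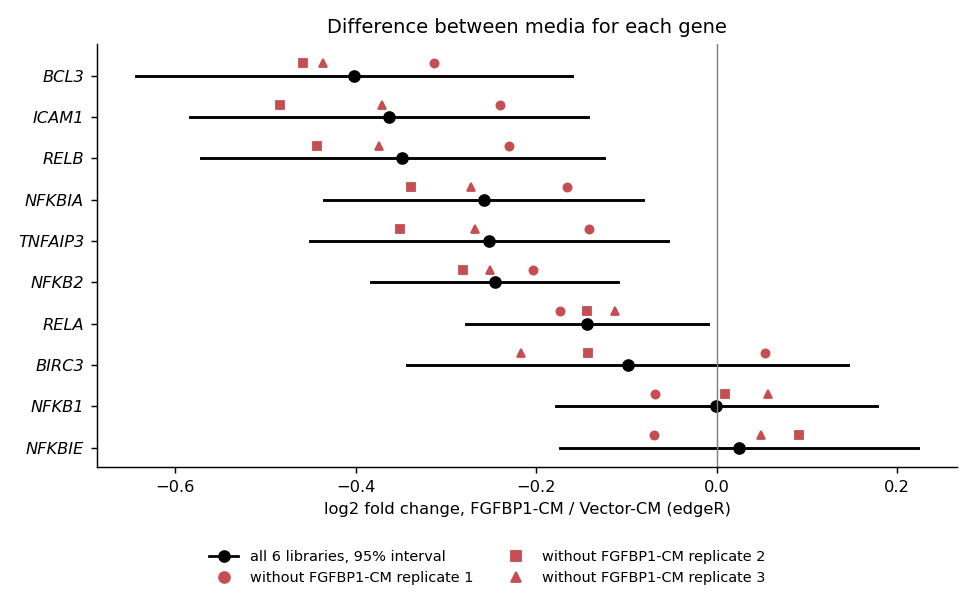
Log2 fold change of each gene between FGFBP1-CM and Vector-CM (edgeR), with the 95% interval from all 6 libraries in black and the estimate after leaving out each FGFBP1-CM library in red. The intervals of 7 genes lie below 0 (unadjusted), and for 7 of the 10 genes the estimate without replicate 1 is the red symbol farthest to the right.

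GC content moved with the fold changes: over all tested genes with a value, Spearman's rho between the log2 fold change and transcript GC content was -0.21, a description across genes, which are not independent replicates. Transcripts of BCL3 (67.4% GC), RELB (65.4%) and NFKB2 (62.4%) are rich in GC, and those of TNFAIP3 (49.5%) and BIRC3 (34.8%) are not. NFKBIE (61.0%), with a log2 fold change of 0.025 before correction, is also rich in GC. RELA (57.1%), ICAM1 (56.9%), NFKBIA (53.1%) and NFKB1 (50.1%) lie in between. After the trend with GC content and transcript length was removed in each library, the log2 fold changes were -0.30 for BCL3, -0.27 for RELB and -0.17 for NFKB2, each smaller, and -0.33 for ICAM1, -0.26 for NFKBIA and -0.27 for TNFAIP3. NFKBIE was at 0.076, BIRC3 at -0.19, RELA at -0.12 and NFKB1 at -0.015. After this correction 6 of the 10 were lower at an unadjusted p under 0.05, and the share of all tested genes at that p was not computed for this fit. None of the 10 passed the adjusted threshold, where 123 of all tested genes did, 64 lower and 59 higher.

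Levels can be compared between genes on the FPKM scale, which divides by gene length. Over the 6 libraries TNFAIP3 was the most abundant of the 10 at 52.6 ± 6.33 FPKM (SD, n = 6), followed by NFKBIA at 33.3 ± 3.52, NFKB2 at 25.9 ± 2.22, RELA at 22.3 ± 1.20 and BIRC3 at 22.0 ± 2.74 FPKM. ICAM1 followed at 13.6 ± 2.10 FPKM, then NFKBIE at 11.0 ± 0.949, RELB at 10.6 ± 1.55, BCL3 at 6.18 ± 1.05 and NFKB1 at 5.11 ± 0.333 FPKM. Thus a pair of feedback inhibitors headed the order, and NFKB1, whose product pairs with RELA, was at the end. Among them, 4 pairs of neighbours did not differ beyond their spread (mean ± SD): RELA and BIRC3, ICAM1 and NFKBIE, NFKBIE and RELB, and BCL3 and NFKB1. The order held within each medium except that RELA and BIRC3 changed places in FGFBP1-CM, and NFKBIE and RELB in Vector-CM.

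**Figure D3:**
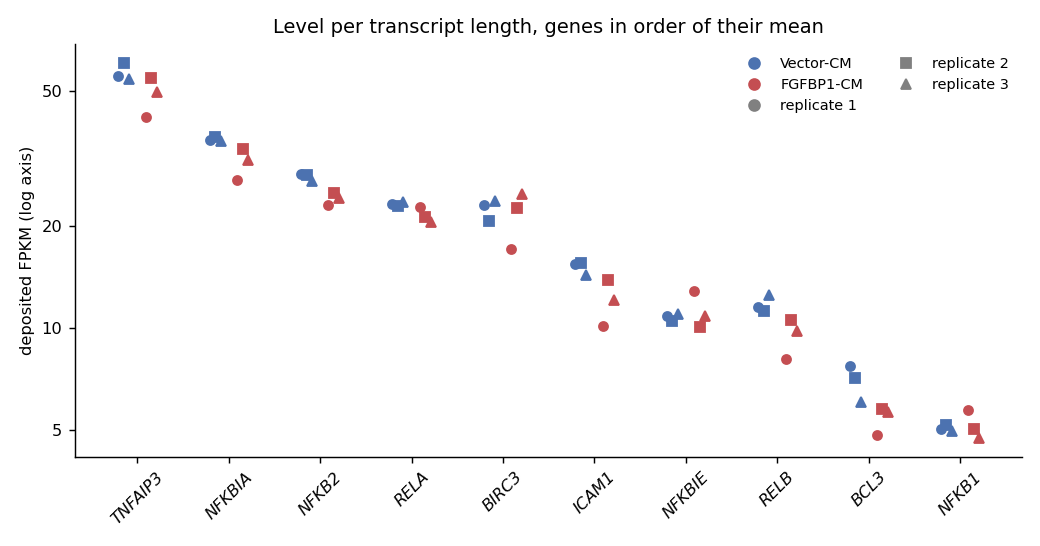
Deposited FPKM (log axis) of the 10 genes in each library, ordered by the mean over 6 libraries. Blue is Vector-CM, red FGFBP1-CM, and the shape gives the replicate. TNFAIP3 lies at the left with 52.6 FPKM on average and NFKB1 at the right with 5.11 FPKM.

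Ratios of FPKM within a library, chosen after the values above were seen, set the subunits of the 2 arms, and the inhibitors and their targets, side by side. The NFKB2 to NFKB1 ratio was 5.63, 5.46 and 5.45 in Vector-CM and 4.03, 4.94 and 5.10 in FGFBP1-CM. Every FGFBP1-CM library was below every Vector-CM library, which in an exact two-sided permutation test gave p = 0.1, the smallest that 3 libraries against 3 allow (0.4 after adjustment over 4 ratios). The NFKBIA to NFKBIE ratio was 3.31, 3.47 and 3.22 in Vector-CM and 2.13, 3.36 and 2.89 in FGFBP1-CM, with overlapping groups (exact permutation p = 0.3, adjusted 0.4). The RELB to RELA ratio (exact permutation p = 0.3, adjusted 0.4) and the NFKBIA to RELA ratio (exact permutation p = 0.6, adjusted 0.6) also overlapped between media.

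The rest of the pathway was read from lists by role. Over 97 other genes, 86 were tested, and 1 passed the adjusted threshold of edgeR. At an unadjusted p under 0.05, 22.1% were lower and 6.98% higher, against 10.7% and 11.1% of all tested genes. The median log2 fold change was -0.053. DESeq2 called 8 of them, 5 lower and 3 higher, where it called 2.59% of all genes with an adjusted p lower and 3.07% higher, and limma on FPKM called none. Without FGFBP1-CM replicate 1, edgeR called 1, where it called 72 of all tested genes. At an unadjusted p under 0.05, 16 of the 86 were then lower and 4 higher. In that fit 6.91% of all tested genes were lower, and the share that was higher was not computed. The 72 tested genes that the deposited table annotates to the KEGG NF-kappa B pathway, the 10 genes left out, gave a median of -0.016, with none past the adjusted threshold of edgeR. At an unadjusted p under 0.05, 10 (13.9%) were lower and 7 (9.72%) higher, beside 10.7% and 11.1% of all tested genes in these directions. This list was chosen with the values already known.

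Of 36 other target genes 29 were tested, with a median log2 fold change of -0.15. At an unadjusted p under 0.05, 10 were lower (34.5%) and 0 higher, against 10.7% and 11.1% of all tested genes. In 11 of the 29 the FGFBP1-CM libraries were all below the Vector-CM libraries, against 0 in the other direction. Over all tested genes the groups failed to overlap on the lower side for 13.2% and on the higher side for 12.8%. MMP9, a gelatinase, fell past the adjusted threshold: it was at 36.6, 31.3 and 29.0 CPM in Vector-CM and at 14.6, 17.9 and 15.9 CPM in FGFBP1-CM. That is a log2 fold change of -1.01 (SE 0.109, edgeR adjusted p = 0.00195), the same direction in every library. CCL5, a chemokine for T cells and monocytes, was at 89.2, 96.3 and 85.9 CPM in Vector-CM and at 42.4, 77.0 and 45.8 CPM in FGFBP1-CM (log2 fold change -0.72, edgeR adjusted p = 0.0634). IRF1, an interferon-responsive transcription factor, went from 50.7 ± 0.449 to 40.3 ± 5.21 CPM (SD, n = 3, log2 fold change -0.34, edgeR adjusted p = 0.0780).

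CXCL8 and SDC4 were among the most abundant other targets by FPKM, SDC4 with a lower estimate and CXCL8 near 0. SDC4, a heparan sulfate proteoglycan, was at 225 ± 11.8 CPM (SD, n = 3) with Vector-CM against 191 ± 14.3 CPM with FGFBP1-CM (SD, n = 3, log2 fold change -0.24, edgeR adjusted p = 0.0969). CXCL8, the neutrophil chemokine interleukin-8 and a widely used NF-kB readout, was at 756, 859 and 811 CPM in Vector-CM and at 883, 710.3 and 843 CPM in FGFBP1-CM. Its groups overlapped, with a log2 fold change of 0.0068 (SE 0.0841, edgeR adjusted p = 0.974).

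**Figure D4:**
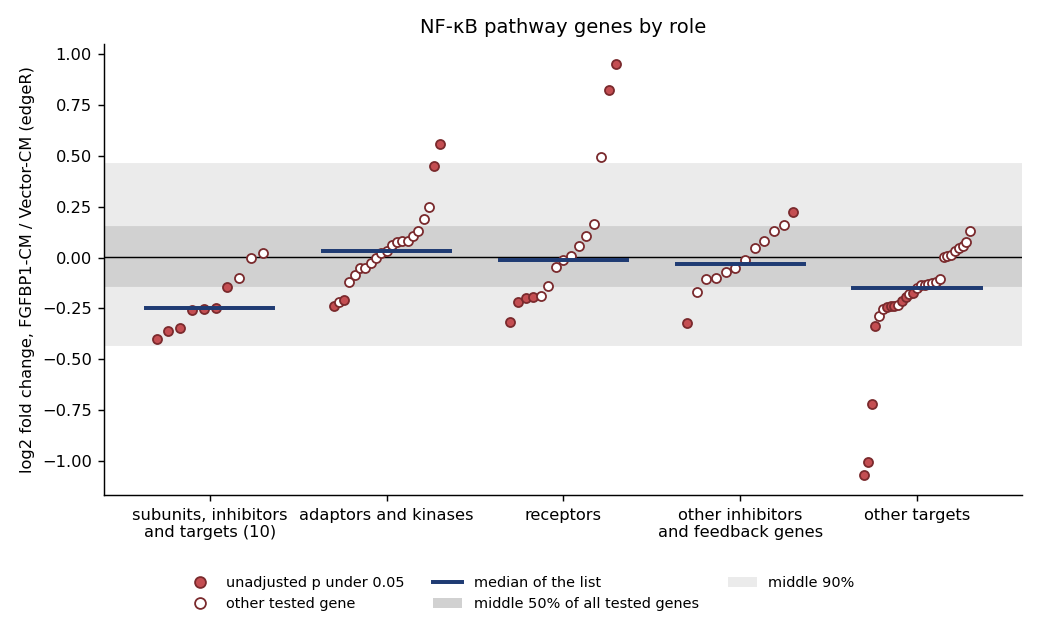
Log2 fold change between FGFBP1-CM and Vector-CM (edgeR) of the 10 genes and of the other tested genes of 4 roles, each point 1 gene, filled where the unadjusted p is under 0.05, with the median of each list as a blue bar. Gray bands hold the middle 50% and 90% of all tested genes. The medians of the 10 genes (-0.25) and of other targets (-0.15) lie below those of the other 3 roles, and no other target is filled above 0.

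Of 15 receptor genes, all tested, 4 (26.7%) were lower and 2 (13.3%) higher at an unadjusted p under 0.05, against 10.7% and 11.1% of all tested genes, with a median log2 fold change of -0.013. TNFRSF1B, the second receptor of tumor necrosis factor, was at 75.0, 72.7 and 74.8 CPM in Vector-CM and at 56.1, 61.2 and 61.4 CPM in FGFBP1-CM (log2 fold change -0.32, edgeR adjusted p = 0.0568). CD40 was at 65.6 ± 4.25 and 56.3 ± 5.01 CPM (SD, n = 3, edgeR adjusted p = 0.145). TLR4, the lipopolysaccharide receptor, was near the filter, at 12 to 19 counts per Vector-CM library and 20 to 33 per FGFBP1-CM library (log2 fold change 0.83, edgeR adjusted p = 0.126). The receptors with the highest FPKM were TNFRSF12A, TNFRSF1A and CD40. TNFRSF1A, the main receptor of tumor necrosis factor, had a log2 fold change of 0.10 (edgeR adjusted p = 0.443), and TNFRSF12A, the receptor of TWEAK, one of 0.17 (edgeR adjusted p = 0.354).

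Of 21 adaptor and kinase genes, all tested, 2 (9.52%) were lower and 2 (9.52%) higher at an unadjusted p under 0.05, near the 10.7% and 11.1% of all tested genes, and the median log2 fold change was 0.030. RIPK1, the kinase that links the tumor necrosis factor receptor to IKK or to cell death, was at 22.8, 23.1 and 21.2 CPM in Vector-CM and at 40.3, 29.5 and 28.8 CPM in FGFBP1-CM. The groups were separate in the direction opposite to the 7 lower genes (log2 fold change 0.56, SE 0.120, edgeR adjusted p = 0.0568). IRAK4 and IRAK2, kinases of interleukin-1 and Toll-like receptor complexes, had log2 fold changes of 0.45 (edgeR adjusted p = 0.102) and -0.21 (edgeR adjusted p = 0.129). The adaptors with the highest FPKM were IRAK1 (log2 fold change -0.053), BIRC2 (-0.12) and TAB2 (-0.0011), all with overlapping groups.

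Of 12 other inhibitors and feedback genes, 1 (8.33%) was lower and 1 (8.33%) higher at an unadjusted p under 0.05, also near those of all tested genes, with a median log2 fold change of -0.032. TNIP1, which encodes ABIN-1, a partner of A20, was the lower one, at 156, 156 and 155 CPM in Vector-CM and at 115, 140.1 and 119 CPM in FGFBP1-CM (log2 fold change -0.32, edgeR adjusted p = 0.0658). N4BP1 was the higher one (log2 fold change 0.23, edgeR adjusted p = 0.168), and ZC3H12A, an RNase that degrades inflammatory transcripts, had a log2 fold change of -0.17 (edgeR adjusted p = 0.298). The inhibitors with the highest FPKM were ZFAND5 (log2 fold change 0.048), TNIP1 and TNIP2 (-0.11). In the linear ubiquitin complex, which modifies IKK gamma, RBCK1 had a log2 fold change of -0.20 (edgeR adjusted p = 0.111), SHARPIN one of -0.053 (edgeR adjusted p = 0.806) and the catalytic subunit RNF31 one of -0.063 at about 1.3 CPM (edgeR adjusted p = 0.915). REL, the remaining subunit gene, was at 18.6 ± 3.26 CPM (SD, n = 3) with Vector-CM against 19.3 ± 3.42 CPM with FGFBP1-CM (SD, n = 3, edgeR adjusted p = 0.892).

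Of 9 ligand genes, TNF, LTA, LTB and CD40LG were below the filter on low counts. IL1B, which encodes the cytokine interleukin-1 beta, was at 51.0, 60.4 and 48.7 CPM in Vector-CM and at 85.7, 67.7 and 57.4 CPM in FGFBP1-CM, with overlapping groups (log2 fold change 0.40, edgeR adjusted p = 0.104). TNFSF13B, the B cell factor BAFF, had a log2 fold change of -0.53 (edgeR adjusted p = 0.125), TNFSF10 one of -0.37 (edgeR adjusted p = 0.440), TNFSF12 one of -0.13 (edgeR adjusted p = 0.630) and IL1A one of 0.16 (edgeR adjusted p = 0.676).

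Genes whose profile over the 6 libraries was most like that of NFKBIA or ICAM1 were sought among tested genes with a mean of at least 10 CPM and at least as large a range. For NFKBIA the closest of 1903 were LDB2, FHL1 and CNKSR3, whose centred log2 CPM differed from its own by a root mean square of 0.014, 0.018 and 0.019 over the 6 libraries. For ICAM1 the closest of 562 were JUNB, NGFR and SIGIRR, at 0.026, 0.039 and 0.041. None of the 10 genes was among them, but the rule on range partly fixed this. With log2 ranges of 0.469 for NFKBIA and 0.663 for ICAM1, it kept NFKBIA out of the search for ICAM1. It also kept NFKB1, NFKB2, RELA and NFKBIE, which varied less, out of both searches. TNFAIP3 and BIRC3, with a smaller range than ICAM1, were kept out of the search for ICAM1. A likeness over 6 libraries is a description only.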

How the data were processed

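RNA of 6 LX-2 samples was sequenced, and groups and replicate numbers came from the sample labels. The authors aligned reads with HISAT2 2.0.5 and counted them per gene with featureCounts 1.5.0-p3, and deposited a raw count and an FPKM value per gene and library. The submitters' processing notes name the build hg18, while the rows carry Ensembl identifiers. Gene coordinates were taken from GENCODE release 29 (GRCh38) by identifier, which matched 96.3% of the Ensembl rows, and need not be those used for counting. Whether counting used strand is not given in the sources used here, so reads of antisense partners cannot be told apart. The study's methods name both a poly(A) selection and a depletion of ribosomal RNA, and the labels only the latter. Columns of the authors' own comparisons, fold changes and p-values, were not used.

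Counts were tested with edgeR 4.0.16 in R 4.3.3 (filterByExpr, TMM, quasi-likelihood F-test, Benjamini-Hochberg over 16707 genes, threshold 0.05). CPM are counts relative to the TMM-scaled library, and the SE is the log2 fold change over the square root of F. Total counts were 14003780 to 18508113 per library. Nothing says that replicates were separate cultures, so p-values measure the spread between these samples, which may be technical. Each pair of replicates differed by more than sampling noise. The 10 genes, the lists and the tests were chosen with earlier results of these data known. The 4 ratios, the KEGG list and other scalings of the non-overlap count were added after the values were seen. All 10 genes are named. Of the other lists, genes past the adjusted threshold are named, with the 3 of lowest p and the 3 of highest FPKM in the inhibitor, receptor, adaptor and target lists, the linear ubiquitin complex, REL and the tested ligands. Genes of these lists that the rule names but the text does not are not reported here.

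The alternatives tried were scaling by RLE or by library size alone, all genes with at least 1 count or those averaging 1 CPM, DESeq2 1.42.0, limma 3.58.1 on log2 FPKM with a pseudocount of 1 or 0.1, blocking on the replicate number, a loess correction (span 0.3) for GC content and transcript length of each library (98.2% of tested genes had both values), alone and with the block, and leaving out each library. Counts were simulated for this comparison over 16402 genes, with 200 changed 2-fold. From these edgeR recovered 84.9% of the changed genes on average over 3 draws, and 6.97% of calls were false. Smaller changes, such as -9.50% for RELA or -24.3% for BCL3, were not simulated. The recovery of changes of that size is therefore not known from these draws. Promoter sequences are from RefSeq (GRCh38.p14).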

Additional observations from a re-analysis of the deposited data

How the results depend on the processing

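For the 10 genes, the count at an unadjusted p under 0.05 was 5 to 7 under every alternative, against 7 as reported. Of all tested genes, 10.7% were lower at that p as reported and 6.91% without FGFBP1-CM replicate 1. For the other alternatives this share was not computed, so their counts have no background beside them. The count past an adjusted p of 0.05 was 0 as reported, 4 with no filter on low counts (RELB, BCL3, TNFAIP3 and ICAM1; 1.44% of all genes were then called lower), 3 with DESeq2, and 0 to 5 on leaving out 1 library. The 5 came without FGFBP1-CM replicate 2 (NFKB2, RELB, NFKBIA, TNFAIP3 and ICAM1; 2.77% of all genes were then called lower). The count without overlap between groups went from 7 to 6, without TNFAIP3, by library size only and by FPKM. The share of all tested genes without overlap was not computed for these scalings. Log2 fold changes of the calls gained were -0.34 for RELB, -0.39 for BCL3, -0.24 for TNFAIP3 and -0.35 for ICAM1 with no filter, and -0.25 for NFKB2, -0.40 for BCL3 and -0.36 for ICAM1 with DESeq2. NFKB1, at -0.00027, changed sign with library size only (0.034), no filter (0.012), limma with a pseudocount of 1 (0.024) or 0.1 (0.027). Leaving out 1 library gave -0.068 to 0.057 for NFKB1, -0.069 to 0.091 for NFKBIE and -0.22 to 0.053 for BIRC3, with changes of sign. It gave -0.28 to -0.20 for NFKB2, -0.44 to -0.23 for RELB, -0.34 to -0.17 for NFKBIA, -0.35 to -0.14 for TNFAIP3 and -0.48 to -0.24 for ICAM1. The cause of these shifts was not tested.

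The count of all tested genes past the threshold was 20 as reported, 38 with RLE scaling, 1382 with no filter, 11 at a mean of at least 1 CPM, 616 with DESeq2, 1 with limma at either pseudocount, 123 with the GC and length correction, and 4 to 883 on leaving out 1 library. That of the other pathway genes was 1 as reported, 10 with no filter, 8 with DESeq2, 0 with limma at either pseudocount, 3 with the GC and length correction, 0 with the KEGG list, and 1 to 9 on leaving out 1 library, the 9 without FGFBP1-CM replicate 2 and 5 without FGFBP1-CM replicate 3. Deviations from the group means correlated little between libraries with the same number (-0.14, -0.018 and 0.16 for replicates 1 to 3 over 15033 genes). For replicate 3 its own number was the best match, and for replicates 1 and 2 it was not. Whether the numbers mark pairs is therefore not settled. With the replicate number as a block, 0 of the 10 genes, 90 of all genes and 2 of the other pathway genes passed, and with the block and the GC correction together 0, 163 and 4.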
